A study of Mus musculus with 8 samples.

Results

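The voltage-gated ion channels described here are the products of 8 genes with known roles in islet cells, chosen by symbol: the calcium channel pore genes Cacna1d, Cacna1c, Cacna1a and Cacna1h, the auxiliary calcium channel gene Cacnb2, the potassium channel gene Kcnma1, and the sodium channel genes Scn9a and Scn3a. Each of the 8 matched 1 row of the 53012 genes in the count table, and each passed the filter on low counts.

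Voltage-gated ion channels turn the metabolic state of an islet cell into electrical activity and hormone release. In β-cells, a rise in glucose metabolism closes ATP-sensitive potassium channels, the membrane depolarizes, and voltage-gated calcium channels admit the calcium that triggers insulin exocytosis. Sodium channels add to the upstroke of the action potential, and potassium channels that open with voltage or calcium end it.

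Whole islets of 8 mice were profiled by RNA-seq, 4 of them βIgf1r and 4 βIgf1rKD, all 17 months old and with both sexes in each group. The Igf1r alleles of all 8 mice were floxed around exon 3 (Igf1r flox/flox). The βIgf1rKD mice were Ins1-CreERT2 +/-, with a Cre that the study's methods describe as driven by a rat insulin promoter, and were injected with tamoxifen at 0.075 mg/g body weight 5 times, once a day. The βIgf1r mice were Ins1-CreERT2 -/- and received the corn oil vehicle, so that Cre and tamoxifen cannot be told apart from the loss of Igf1r, and islets were taken 7 days after the last injection. Each library held the islets of 1 mouse, and sex was not marked per mouse.

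The targeted gene Igf1r was at 46.9, 48.0, 60.9 and 58.7 CPM (counts per 1000000 counts) in the βIgf1r mice M148, M151, M152 and M153, and at 46.9, 50.2, 57.9 and 47.8 CPM in the βIgf1rKD mice M145, M146, M149 and M150. Its log2 fold change was -0.08 (standard error 0.11, edgeR adjusted p = 0.988), so that Igf1r did not separate the groups in these counts, which cover the whole gene and not exon 3 alone. As far as Igf1r shows, the group of each library therefore rests on its label. The study itself reports lower Igf1r mRNA by qPCR in islets of these genotypes, and lower IGF1R protein by Western blotting in younger mice. Of 8 β-cell markers, 5 had negative log2 fold changes, and for 1 of them, Ins1, the groups did not overlap. They did not for 2.22% of all genes tested. Ins1 had a log2 fold change of -0.92 in βIgf1rKD over βIgf1r islets (standard error 0.33, edgeR unadjusted p = 0.0204, adjusted p = 0.987). For the other insulin gene, Ins2, the log2 fold change was -0.08 (standard error 0.41, edgeR unadjusted p = 0.859). All βIgf1rKD mice and no βIgf1r mice carried Ins1-CreERT2, so that this allele and the loss of Igf1r cannot be told apart. The cause of the Ins1 difference was not tested. The libraries held between 21633925 and 42391106 counts. Endocrine markers were abundant in every library, at 25700 to 34000 CPM summed over 8 genes such as Chga and Pcsk2. Markers of exocrine acinar cells took 2.02% to 14.6% of the counts in βIgf1r and 4.2% to 17.1% in βIgf1rKD mice. Of 10 endothelial markers tested, all 10 had negative log2 fold changes in βIgf1rKD over βIgf1r islets. At an unadjusted p under 0.05, 6 of them were lower, against 1.89% of all genes tested. For 5 of the 10 the groups did not overlap. Of 7 mural markers tested, 4 had negative log2 fold changes, 1 of them at an unadjusted p under 0.05. Because whole islets were sequenced, fewer cells of a type and less RNA per cell cannot be told apart.

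The pore of a voltage-gated calcium or sodium channel is 1 long protein of homologous repeats, each of which lends an amino acid to the ring that selects the ion. Calcium channels carry acidic residues in that ring, whereas sodium channels carry a lysine in repeat III. Potassium channels such as that of Kcnma1 select their ion with a glycine-tyrosine-glycine signature. The coding stretches are shown because they tell apart the ions that these genes conduct. They are read on the coding strand from the GENCODE M21 transcripts of GRCm38, with the codon of the selecting residue (the tyrosine for Kcnma1) in capitals.
Cacna1d: gtctcaacttttGAGggctggcccgcg
Cacna1c: gtctccaccttcGAAgggtggccagag
Cacna1a: gtgtccacaggaGAGggctggccacag
Cacna1h: ctgtcatccaagGATggctgggtaaac
Scn9a: gttgcaacgttcAAGggctggatggat
Scn3a: gtggccacattcAAAggctggatggat
Kcnma1: tctacagtgggtTATggggacgtttat

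The codon in capitals encodes glutamate in Cacna1d, Cacna1c and Cacna1a, aspartate in the low-voltage-activated Cacna1h, and lysine in Scn9a and Scn3a. The stretch of Cacna1d lies at chr14:30099243-30100722 on the minus strand, across the junction of exons 27 and 28 of Cacna1d-207. Exons 27 and 28 also meet within the stretches of Cacna1c, at chr6:118654455-118656138 on the minus strand in Cacna1c-204, and of Cacna1a, at chr8:84581326-84583559 on the plus strand in Cacna1a-201. The stretch of Cacna1h lies within exon 24 of Cacna1h-205, at chr17:25383496-25383522 on the minus strand. Both sodium channel stretches cross the junction of exons 22 and 23 on the minus strand, at chr2:66493916-66494611 in Scn9a-202 and chr2:65469042-65469928 in Scn3a-201. The stretch of Kcnma1 lies within exon 8 of Kcnma1-228, at chr14:23528404-23528430 on the minus strand. The counts add all transcripts of a gene, between 4 for Scn3a and 38 for Kcnma1 in this annotation, and do not separate splice forms.

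To compare the genes with each other, CPM was divided by the length of a gene's annotated exons. Cacna1d was the highest of the 8, at 6.50 ± 0.698 CPM per kilobase in βIgf1r and 6.23 ± 0.467 in βIgf1rKD islets (SD, n = 4 each). Cacna1a followed at 3.61 ± 0.603 CPM per kilobase in βIgf1r and 3.795 ± 0.291 in βIgf1rKD islets (SD, n = 4 each), and lay below Cacna1d and above Kcnma1 in 8 of 8 mice without overlap. Kcnma1 came next at 2.50 ± 0.138 CPM per kilobase (SD, n = 4) in βIgf1r islets. Below it, Scn9a, Cacna1c and Cacnb2, at 2.15 ± 0.272, 1.91 ± 0.113 and 1.86 ± 0.103 CPM per kilobase (SD, n = 4 each) in βIgf1r islets, were not separated beyond their spread. Scn9a exceeded Cacna1c in 6 of 8 mice, and Cacna1c exceeded Cacnb2 in 3 of 8. Scn3a, at 1.03 ± 0.0719 CPM per kilobase (SD, n = 4) in βIgf1r islets, was lower than Cacnb2 in every mouse. Cacna1h was the lowest, at 0.689 ± 0.179 CPM per kilobase (SD, n = 4), and exceeded Scn3a in 1 of the 8 mice. With the length of the longest annotated transcript instead, 5 of the 8 genes kept their place. Cacnb2 moved from place 6 to place 3, since its longest transcript, Cacnb2-207 with 3 exons, holds 5030 of 13228 exonic bases.

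**Figure D1:**
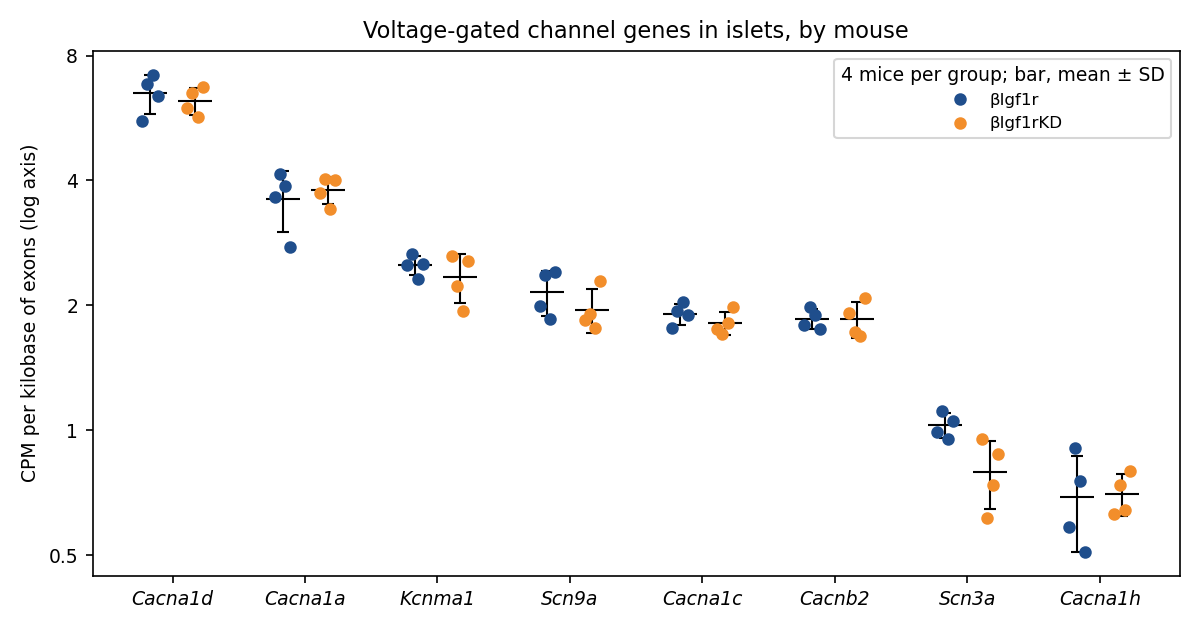
Level of each channel gene in each mouse, in CPM per kilobase of annotated exons on a log axis, with 1 point per mouse, βIgf1r in blue and βIgf1rKD in orange, and black bars for the mean ± SD of 4 mice. Cacna1d is highest, Scn3a and Cacna1h lowest, and the points of both groups overlap for all 8 genes.

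Of the 89 voltage-gated channel genes looked at, 5 had a higher level per kilobase than Cacna1d, averaged over the 8 mice. They were Kcnmb2, which encodes an inactivating partner of the Kcnma1 channel, at 23.5 CPM per kilobase, the potassium channel genes Kcnh2 and Kcnh6 at 19.2 and 9.05, Cacnb3 at 13.6, and Cacna2d1 at 8.80. Cacna1h held place 30. Among the 10 calcium channel pore genes, Cacna1d took 45.8% ± 3.30 (SD, n = 4) of the summed level per kilobase in βIgf1r and 44.4% ± 0.231 (SD, n = 4) in βIgf1rKD islets. The shares of Cacna1a were 25.3% ± 2.88 (SD, n = 4) and 27.0% ± 0.516 (SD, n = 4), and those of Cacna1c 13.5% ± 1.06 (SD, n = 4) and 13.0% ± 1.08 (SD, n = 4). With Cacna1h, these genes made up 86.8% to 91.1% of the calcium channel pore RNA of a mouse. Of the pore genes outside the 8, Cacna1b, the N-type channel, was the highest with 6.02% to 7.97%, whereas Cacna1e, the R-type channel, took 0.135% to 0.506%.

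Cacnb2 held a smaller part than Cacnb3 of the calcium channel β subunits, which traffic the pore to the membrane. Its share was 10.3% ± 0.641 in βIgf1r and 11.1% ± 1.56 in βIgf1rKD islets (SD, n = 4 each), next to 75.2% to 79.6% for Cacnb3. With the longest transcript as length, an alternative chosen after seeing the data, the Cacnb2 share was 17.2% in βIgf1r and 18.4% in βIgf1rKD islets. That share rests on the length of Cacnb2-207, a transcript of 3 exons. Cacnb2 then stood above Cacnb1 at 9.45% and 9.73%, which by exon length was at 11.1% and 11.5%. Among 10 sodium channel pore genes, Scn9a took 46.8% ± 1.93 in βIgf1r and 48.6% ± 2.87 in βIgf1rKD islets (SD, n = 4 each). Scn3a took 22.4% ± 0.960 (SD, n = 4) and 19.7% ± 2.81 (SD, n = 4). Scn9a and Scn3a together made up 66.9% to 71.4% in every mouse, and Scn8a was the next with 16.8% to 24.7%.

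**Figure D2:**
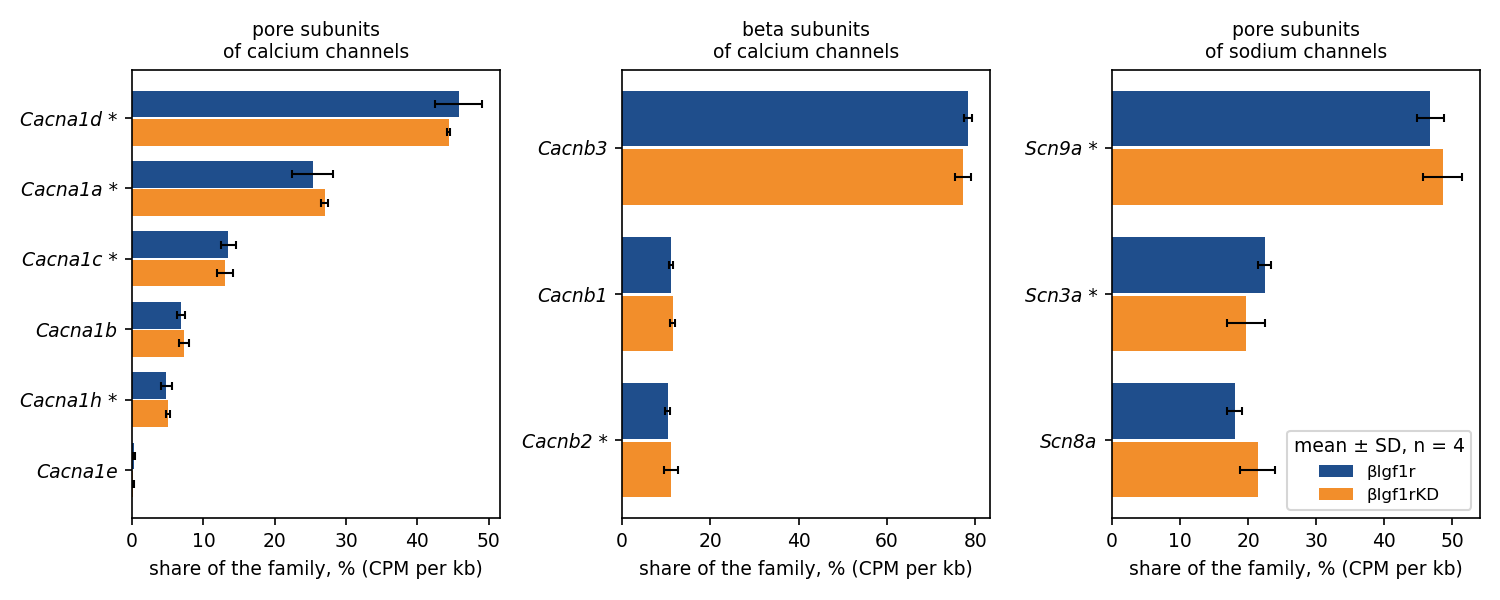
Share of the genes named in the text in the summed CPM per kilobase of their whole family, in percent, as the mean of 4 mice with the SD as error bar, βIgf1r in blue and βIgf1rKD in orange, where stars mark the 8 genes described. Cacna1d leads the calcium channel pores at 45.8% and 44.4%, Cacnb3 the β subunits, and Scn9a the sodium channel pores.

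The question of the design is whether these genes differ between βIgf1rKD and βIgf1r islets. By edgeR's quasi-likelihood test, 1 of the 8 genes, Scn3a, had an unadjusted p under 0.05, and 0 had an adjusted p under 0.05. Over all 15474 genes, 4.12% were at an unadjusted p under 0.05, 1.89% lower and 2.23% higher in βIgf1rKD islets, and 0% an adjusted p under 0.05. DESeq2 and limma-voom also gave 1 of the 8 at an unadjusted p under 0.05 and 0 at an adjusted one. The groups overlapped in log2 CPM for all 8 genes, whereas they did not for 2.22% of all genes tested. The log2 fold change was negative for 6 of the 8, with a median of -0.07, against 47.7% of all genes with a median of 0.01. This tally turned when counts were scaled to the endocrine markers, where 6 of the 8 were above 0 with a median of 0.06, while the median of all genes moved to 0.13 and 20% of them were below 0. Values by mouse are given in CPM, in the order M148, M151, M152 and M153 for βIgf1r and M145, M146, M149 and M150 for βIgf1rKD mice.

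Cacna1d and Cacna1c encode the pores of the L-type calcium channels, through which much of the calcium for insulin secretion enters. Cacna1d (ENSMUSG00000015968, GRCm38 chr14:30039939-30491455, minus strand) was at 70.4, 86.2, 90.9 and 80.7 CPM in βIgf1r and 75.7, 82.0, 71.9 and 84.8 CPM in βIgf1rKD mice. The highest and the lowest value both belonged to βIgf1r mice, M152 and M148. The log2 fold change was -0.06 (standard error 0.10, 95% interval -0.27 to 0.15, edgeR adjusted p = 0.988). Its exons share 589 bases with Chdh on the opposite strand, a gene with 30 to 261 counts against 1617 to 3439 for Cacna1d, and the strand setting of the counting is not given in the sources used here.

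Cacna1c (ENSMUSG00000051331, chr6:118587240-119196418, minus strand) was at 37.3, 41.1, 43.1 and 40.1 CPM in βIgf1r and 37.1, 36.2, 38.5 and 41.9 CPM in βIgf1rKD mice. Its values spanned 1.19-fold from the lowest to the highest mouse, the narrowest span of the 8 genes, and M145 and M146 lay below all βIgf1r mice. Its log2 fold change was -0.07 (standard error 0.08, 95% interval -0.24 to 0.10, edgeR adjusted p = 0.987), so that a change of the group mean below 0.846-fold or above 1.07-fold lies outside the interval. Within each library, the log2 ratio of Cacna1d to Cacna1c counts was 1.02 ± 0.07 in βIgf1r and 1.03 ± 0.11 in βIgf1rKD mice (SD, n = 4 each), a difference of 0.01 (p = 0.886 by an exact permutation test, two-sided, and 0.886 once adjusted for the 5 ratios).

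Cacna1a encodes the pore of the P/Q-type calcium channel, which opens at higher voltages and works close to the release sites of secretory vesicles. Cacna1a (ENSMUSG00000034656, chr8:84388440-84640246, plus strand) was at 41.7, 47.5, 44.2 and 31.5 CPM in βIgf1r and 42.5, 46.1, 39.0 and 45.8 CPM in βIgf1rKD mice. The βIgf1r mouse M153 was the lowest of all 8, and the other 7 lay between 39.0 and 47.5 CPM. A log2 fold change of 0.07 was fitted (standard error 0.12, 95% interval -0.20 to 0.35, edgeR adjusted p = 0.988), and without M153 it was -0.04. The log2 ratio of Cacna1a to Cacna1d was -1.002 ± 0.26 in βIgf1r and -0.86 ± 0.03 in βIgf1rKD mice (SD, n = 4 each). Its 4 values in βIgf1rKD mice lay between -0.89 and -0.83, inside the -1.36 to -0.75 of the βIgf1r mice (p = 0.371 by an exact permutation test, two-sided, and 0.667 once adjusted for the 5 ratios). Without M153 this difference fell from 0.14 to 0.03.

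Cacna1h encodes the pore of a T-type calcium channel, which opens with small depolarizations. Cacna1h (ENSMUSG00000024112, chr17:25374285-25433783, minus strand) was at 5.70, 8.88, 7.37 and 4.98 CPM in βIgf1r and 6.13, 7.21, 6.27 and 7.79 CPM in βIgf1rKD mice. Both extremes were βIgf1r mice, M151 and M153, and all βIgf1rKD mice lay between them. The fit gave a log2 fold change of 0.03 (standard error 0.19, 95% interval -0.39 to 0.45, edgeR adjusted p = 0.999). It rested on 105 to 316 counts per mouse, for which the counting error at the lowest count is 9.76%, and its interval, 0.762-fold to 1.36-fold, is the widest of the 8 on the log2 scale.

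Cacnb2 (ENSMUSG00000057914, chr2:14603088-14987908, plus strand) was at 23.7, 26.3, 25.1 and 23.3 CPM in βIgf1r and 25.4, 22.9, 22.3 and 27.6 CPM in βIgf1rKD mice. The βIgf1rKD mice M150 and M149 held the highest and the lowest value. Between the groups it differed by -0.0024 on the log2 scale (standard error 0.09, 95% interval -0.21 to 0.20, edgeR unadjusted p = 0.979). The log2 ratio of Cacnb2 to Cacnb3 was -1.21 ± 0.11 in βIgf1r and -1.09 ± 0.24 in βIgf1rKD mice (SD, n = 4 each), with p = 0.400 by an exact permutation test, two-sided, and 0.667 once adjusted for the 5 ratios.

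Kcnma1 encodes the pore of the BK channel, a potassium channel that opens with both voltage and intracellular calcium and shortens action potentials. Kcnma1 (ENSMUSG00000063142, chr14:23289431-24014491, minus strand) was at 42.6, 45.1, 39.4 and 42.7 CPM in βIgf1r and 44.6, 37.9, 33.0 and 43.4 CPM in βIgf1rKD mice. M149 of the βIgf1rKD group was the lowest, and M145 and M150 of that group lay above 3 of the 4 βIgf1r mice. Its fitted log2 fold change was -0.10 (standard error 0.10, 95% interval -0.32 to 0.13, edgeR adjusted p = 0.987), and without M149 it was -0.016.

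Scn9a and Scn3a encode sodium channel pores of islet and nerve cells, and lie on chromosome 2 in the same orientation. Scn9a (ENSMUSG00000075316, chr2:66480080-66634962, minus strand) was at 25.5, 30.2, 23.6 and 30.7 CPM in βIgf1r and 23.5, 24.4, 22.6 and 29.3 CPM in βIgf1rKD mice. M145 and M149 of the βIgf1rKD group lay below all βIgf1r mice, and M150 lay above 2 of them. For Scn9a the log2 fold change was -0.14 (standard error 0.12, 95% interval -0.40 to 0.12, edgeR adjusted p = 0.987).

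Scn3a had the largest log2 fold change of the 8 genes in either direction. Scn3a (ENSMUSG00000057182, chr2:65457118-65567627, minus strand) was at 12.4, 13.9, 11.9 and 13.1 CPM in βIgf1r and 11.9, 7.68, 9.19 and 10.9 CPM in βIgf1rKD mice. Of the βIgf1rKD mice, 3 lay below every βIgf1r mouse, and M145 lay just above M152, the lowest βIgf1r mouse. The log2 fold change was -0.37 (standard error 0.14, 95% interval -0.68 to -0.06, edgeR unadjusted p = 0.0251), a level of 0.774-fold, and it did not pass the adjustment over all genes (adjusted p = 0.987). Without M151, M153, M146 or M149 the unadjusted p lay between 0.0508 and 0.0633, and without M146 the log2 fold change was -0.265. Relative to the mean of the 8 endocrine markers in the same library the difference was -0.26 (exact two-sided permutation test, p = 0.229). Of the other cell types, the 11 endothelial markers summed to 478 to 598 CPM in βIgf1r and 423 to 475 CPM in βIgf1rKD islets. Of the 10 tested, 6 were lower at an unadjusted p under 0.05, against 1.89% of all genes tested. The 7 glial markers summed to 13.6 to 16.6 CPM and 9.66 to 14.5 CPM, all 7 with a negative log2 fold change (median -0.39) and 0 at an unadjusted p under 0.05. The median log2 fold change was also negative for the markers of all endocrine cells (-0.12), β-cells (-0.07), delta cells (-0.19), gamma cells (-0.29, 1 gene) and mural cells (-0.20). It was positive for acinar (0.88), duct (0.61) and immune (0.35) markers, and 0.0007 for those of alpha cells. The part of any cell type in the value of Scn3a was not tested. The log2 ratio of Scn9a to Scn3a was 1.10 ± 0.10 in βIgf1r and 1.34 ± 0.28 in βIgf1rKD mice (SD, n = 4 each), with p = 0.171 by an exact permutation test, two-sided, and 0.667 once adjusted for the 5 ratios.

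**Figure D3:**
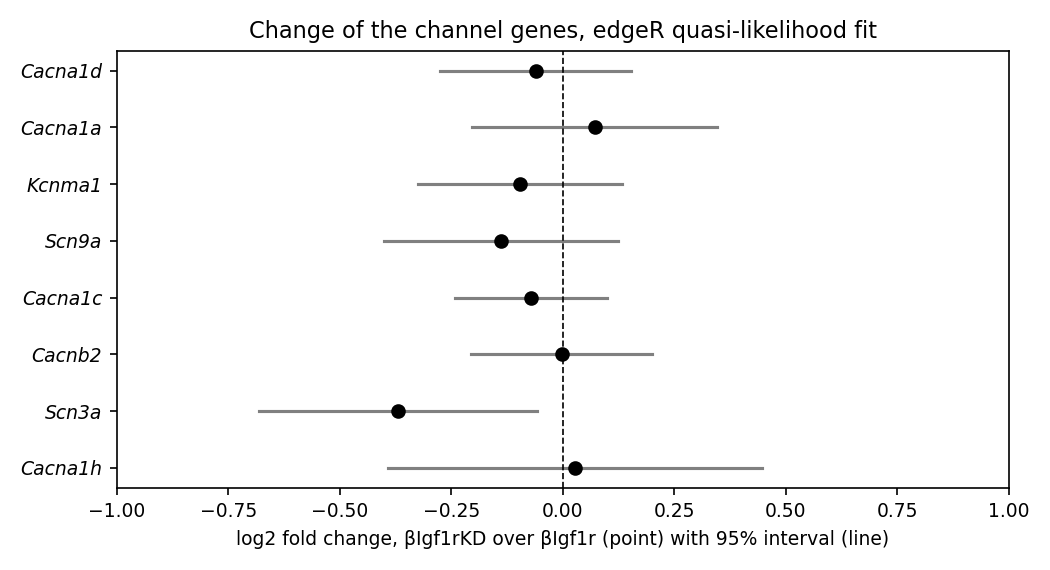
Log2 fold change of each channel gene in βIgf1rKD over βIgf1r islets from edgeR's quasi-likelihood fit, with its 95% interval as a line and a dashed line at no change. The interval of Scn3a, -0.68 to -0.06, is below 0, and those of the other 7 genes include 0.

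The spread of the channel genes between mice differed from gene to gene. The biological coefficient of variation is the spread between mice of a group beyond counting error. Its edgeR estimate is drawn toward that of genes of similar level. It was 9.97% for Cacna1c to 20.4% for Cacna1h, with a median of 12.7% over the 8 and 16.2% over all genes tested. These medians were not matched for level. Several mice were high or low for many of the genes at once. M151 lay above the mean of the 8 mice for 8 of the 8 genes and was the highest mouse for 4, and M150 lay above it for 7. M149 lay below the mean for 8 of 8 and was the lowest mouse for 3, Kcnma1, Cacnb2 and Scn9a. The share of acinar markers was 3.40% in M151, 11.2% in M150 and 17.1% in M149. It was 2.02% in M148, 4.2% in M146, 8.55% in M153, 14.2% in M145 and 14.6% in M152. These mice lay above the mean for 2, 3, 5, 4 and 6 of the 8 genes, in that order. The part of the acinar share in these differences was not tested. With the acinar score in the fit, the log2 fold change between the groups moved from 0.07 to 0.13 for Cacna1a and from -0.07 to -0.12 for Cacna1c. It moved from -0.06 to -0.09 for Cacna1d, 0.03 to 0.07 for Cacna1h, -0.002 to -0.01 for Cacnb2 and -0.37 to -0.43 for Scn3a. Toward 0 it moved for Kcnma1, from -0.10 to -0.07, and for Scn9a, from -0.14 to -0.11.

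**Figure D4:**
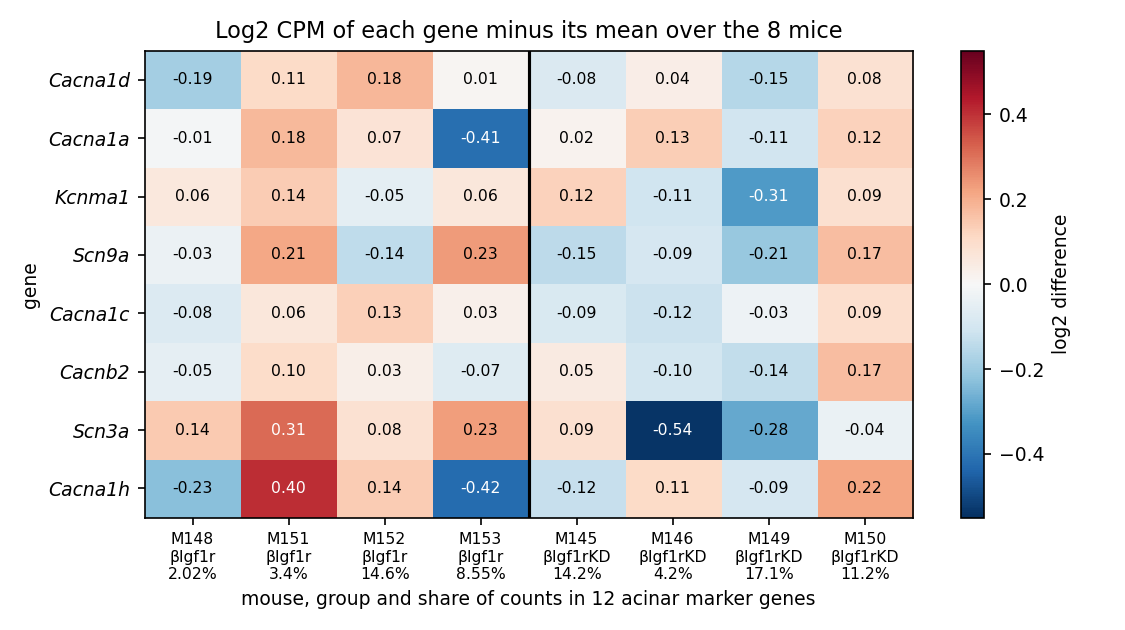
Log2 CPM of each channel gene in each mouse minus the gene's mean over the 8 mice, with the share of counts in acinar marker genes under each mouse. M151 is positive and M149 negative in every row, and the largest single values are those of Scn3a in M146, at -0.54, and of Cacna1h and Cacna1a in M153, at -0.42 and -0.41.

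The other channel genes were taken from 4 lists. Their counts at an unadjusted p under 0.05 stand beside 4.12% of all genes tested. Of 21 further calcium channel subunits 14 could be tested, with 0 in either direction at an unadjusted p under 0.05 and a median log2 fold change of -0.08. The highest of them per kilobase had log2 fold changes of -0.12 for Cacnb3, -0.25 (standard error 0.13) for Cacna2d1, which brings calcium channels to the cell surface, and -0.05 for Cacnb1. Of 12 further sodium channel subunits 7 could be tested, 1 of them at an unadjusted p under 0.05. This was Scn4b, an auxiliary subunit with 5 to 57 counts and a log2 fold change of 1.12 (standard error 0.48, edgeR adjusted p = 0.987). Of the more abundant members of this list, Scn3b and Scn8a had log2 fold changes of -0.22 and 0.05. The list's median was -0.22.

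Of 8 partners of the BK channel, 3 could be tested and 0 had an unadjusted p under 0.05. Kcnmb2 differed by -0.14 on the log2 scale (standard error 0.12), and at 24.6 ± 3.57 CPM per kilobase (SD, n = 4) in βIgf1r islets it stood above the 2.50 of the pore gene Kcnma1. Kcnmb1, the partner known from smooth muscle, had 7 to 36 counts, and Lrrc26 had 1 to 9 and was not tested. Of 40 voltage-gated potassium channel genes 26 could be tested, with a median log2 fold change of -0.05. At an unadjusted p under 0.05, 0 were higher and 2 lower, against 2.23% and 1.89% of all genes tested. Kcns3, which encodes a silent subunit of voltage-gated potassium channels, had 3 to 20 counts. Its log2 fold change was -1.66 (standard error 0.37, edgeR adjusted p = 0.987). The groups did not overlap for Kcns3, as for 2.22% of all genes tested. Kcnc2 had 27 to 90 counts and a log2 fold change of -0.65 (standard error 0.29, edgeR adjusted p = 0.987). Kcnh2 and Kcnh6, the highest of this list per kilobase, had log2 fold changes of 0.01 and -0.13.

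For each of the 8 genes, genes of the table whose log2 CPM was most like it over the 8 mice were listed by Pearson's r, as a description without a test, since they are among the highest of 15466 comparisons over 8 mice. For Cacna1d they were Rbfox2 at 0.971 and Kif1b at 0.969, and for Cacna1c Zfp433 at 0.915. Those of Cacna1a were Ino80 at 0.985 and Brpf3 at 0.964, and those of Cacna1h were Cdca2 at 0.968 and Kat6a at 0.961. Cacnb2 was most like L1cam at 0.945 and Mlh3 at 0.938. Kcnma1 was most like Napepld at 0.974 and Wfdc16 at 0.969. For Scn9a they were Ttc39b at 0.965 and Resp18 at 0.964, and for Scn3a Tram1l1 at 0.977 and B230217C12Rik at 0.957. All values share the libraries and their scaling.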

How the data were processed

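Islet RNA of 8 mice was sequenced from TruSeq stranded mRNA libraries. The authors deposited estimated counts per Ensembl gene, not scaled between mice. The submitters' processing notes name fastp, kallisto and GRCm38, while the annotation release is not given in the sources used here. Groups and mouse numbers came from the sample titles, and genotype, age and treatment from the study's methods. Coordinates and lengths are those of GENCODE M21 on GRCm38, and 51906 of 53012 identifiers matched a symbol. Counts were rounded, and the default filter of edgeR 4.0.16 kept 15474 genes. The groups were compared with TMM factors in edgeR's quasi-likelihood framework, with p-values adjusted by the Benjamini-Hochberg procedure over all genes tested, at a threshold of 0.05. Ratios of counts had 0.5 added and were compared by exact permutation over 70 assignments, whose smallest p is 0.0286. If only 1 ratio reached that p, it would not pass 0.05 once adjusted for the 5 ratios. P-values weigh the difference between the groups against the spread between mice.

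The alternatives were RLE factors, DESeq2 1.42.0, limma-voom (limma 3.58.1), no filter or 10 counts in every mouse, Xist, acinar or mural scores as covariates, endocrine markers as the scale, a pseudocount of 5, another gene length, and each mouse left out. The members and lists were chosen with earlier results of these data known. The genes named are the 8 channel genes, Igf1r, the partners in the ratios, the 3 highest per kilobase of each list, those of each list at an unadjusted p under 0.05 (at most 3), and the 2 most correlated with each channel gene. Cacna1b, Cacna1e, Ins1 and Ins2 were named after their values were seen. A few genes that this rule gives, and 1 of the 5 ratios, are not reported here.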

Additional observations from a re-analysis of the deposited data

How the results depend on the processing

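With all mice kept, 64 of the 72 values from 9 alternatives for the 8 log2 fold changes kept their direction and their side of an unadjusted p of 0.05. With Xist as a covariate, Cacna1a was at -0.021 and Cacna1h at -0.090, and Kcnma1 moved from -0.10 to -0.20 (edgeR unadjusted p = 0.0545). With the mural score as a covariate, Cacnb2 was at 0.024. Relative to the endocrine markers, Cacna1c was at 0.0515, Cacna1d at 0.065, Cacnb2 at 0.12, Kcnma1 at 0.019 and Scn3a at -0.26. For Scn3a the p was 0.229 by the exact two-sided permutation test used with this scale. The main fit used edgeR's test, so that the change of scale and the change of test cannot be told apart. With each mouse left out in turn, the log2 fold changes lay between -0.040 and 0.15 for Cacna1a, -0.093 and 0.19 for Cacna1h, and -0.066 and 0.041 for Cacnb2. They lay between -0.154 and -0.016 for Kcnma1 (farthest without M145 and M149), -0.129 and -0.0084 for Cacna1d (M148 and M152), -0.226 and -0.085 for Scn9a (M150 and M153), -0.117 and -0.039 for Cacna1c (M150 and M152), and -0.465 and -0.265 for Scn3a. The sign turned for Cacna1a without M153, for Cacna1h without M148, M153 or M150, and for Cacnb2 without M151, M152, M146 or M149. The count of the 8 genes at an unadjusted p under 0.05 was 0 or 1, and 0 without M151, M153, M146 or M149. The ratio differences ranged from -0.036 to 0.057 for Cacna1d to Cacna1c, 0.14 to 0.37 for Scn9a to Scn3a, 0.03 to 0.23 for Cacna1a to Cacna1d and 0.03 to 0.21 for Cacnb2 to Cacnb3, and with 3 mice against 4 the smallest p is 0.0571. The Cacna1d to Cacna1c difference turned negative without M148 or M146. The level order kept 5 of 8 places with the longest transcript as length.

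Across all genes, 637 had an unadjusted p under 0.05, against 1098 with no filter on low counts, 1143 with Xist, and 392 with the acinar score as a covariate, and 383 to 1114 with a mouse left out. No gene had an adjusted p under 0.05 by edgeR under any of its alternatives, where DESeq2 gave 8 and limma-voom 1. The groups did not overlap for 344 genes, and for 542 to 1228 with a mouse left out, where fewer mice make separation easier. No paired analysis was possible because the groups share no mouse numbers. Cacna1h and Scn3a, with 105 and 211 counts at their lowest, are the genes most limited by depth. The cause of these shifts was not tested.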
